A study of Homo sapiens with 6 samples.

Results

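Splicing factors are the proteins that find the ends of introns and decide which exons are kept in a messenger RNA. The 51 genes described here were chosen by name from this class, and all 51 were found by their Ensembl identifiers in both the count table and the FPKM table, out of 23406 features. They comprise 12 SR and SR-like proteins, 19 heterogeneous nuclear ribonucleoproteins (hnRNPs, PTBP1 included), 10 proteins that recognise the branch point and the 3′ splice site, 4 proteins of the U1 and U5 small nuclear ribonucleoproteins, 4 other RNA-binding regulators and 2 CLK kinases. RNA sequencing had been done on Hep3B, a human hepatocellular carcinoma cell line, and shNXN cells were compared with shControl cells on days 7, 9 and 11, with 1 library for each group and day. NXN encodes nucleoredoxin, a thioredoxin-like redox protein.

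All libraries came from Hep-3B cells transduced with shRNA lentivirus and selected with puromycin, so the controls shared both treatments. The labels give the shControl libraries as genotype WT and the others as NXN knockdown. They do not say which shRNA against NXN was sequenced, and they count the days once from the introduction of the shRNA and once from the end of selection. The 3 libraries of a group differ in day, so the spread within a group holds the day as well as the culture. No source describes separate cultures beyond the day, and the p-values measure the spread between these libraries.

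SR proteins carry RNA recognition motifs and an arginine- and serine-rich tail, and they typically bind exons and favour their inclusion. HnRNPs coat nascent transcripts and often favour exon skipping. CLK kinases phosphorylate the tails of SR proteins and so control where these proteins are in the nucleus. Many SR and hnRNP genes control their own level through exons or introns whose inclusion exposes the messenger to decay, so these genes produce transcripts of several lengths.

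The library totals ranged from 15349382 to 16332589 counts, and 14071 features were tested. NXN was at 180.6, 137.6 and 143.2 CPM (TMM-normalised count as a rate per library) in the shControl libraries of days 7, 9 and 11, and at 42.7, 47.5 and 39.5 CPM in the shNXN libraries. The groups did not overlap, and an exact two-sided permutation test of the CPM values gave p = 0.1, the smallest possible with 3 against 3 libraries. The log2 fold change of NXN was -1.83, with a standard error (SE) of 0.16 and an adjusted p of 0.0378 by the quasi-likelihood test of edgeR. With 1 library left out, its adjusted p ran from 0.00131 to 0.225, and NXN missed the threshold in 4 of those 6 fits, those without either library of day 7, the shControl library of day 11 or the shNXN library of day 9. With the GC correction described below, NXN had a log2 fold change of -2.39 (edgeR adjusted p = 0.0104). Among hepatocyte lineage markers ALB was at 6447, 12145 and 4409 FPKM in shControl cells and at 1084, 489 and 4735 FPKM in shNXN cells, and all 8 listed markers were detected. SERPINA1 was higher in shNXN cells on each day, from 1004, 1015 and 936 FPKM to 1638, 1205 and 1316 FPKM. HNF4A was too, from 103, 132 and 73.1 FPKM to 134, 179 and 103 FPKM. ALB, AFP and APOB were lower on days 7 and 9 and higher on day 11, and TTR was slightly lower on each day. TF and APOA1 were higher on days 7 and 11 and lower on day 9, APOA1 only slightly on day 7. The summed hepatocyte markers spanned 7636 to 16475 FPKM in shControl libraries and 3895 to 9005 FPKM in shNXN libraries, a sum to which ALB gave up to 12145 FPKM. The 3 endothelial markers found were at or near 0 and the 5 fibroblast markers summed to at most 4.39 FPKM. The 5 immune markers summed to between 79.6 and 127.5 FPKM in shControl cells and between 120.2 and 238.5 FPKM in shNXN cells, nearly all of it LYZ, with PTPRC at or under 0.04 FPKM and CD3E at 0. The shNXN library of day 11 stood apart in the tests: without it 3706 features had an adjusted p under 0.05 from edgeR, against 477 with it. What part these differences had in the results below was not tested.

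Among the splicing factors, CLK1, CLK4 and SRSF10 fell in shNXN cells and none rose, by an adjusted p under 0.05 from edgeR. These 3 members compare with 3.39% of all tested features called (0.185% higher and 3.21% lower). At an unadjusted p under 0.05 the number was 23 members, against 32.9% of all features. The median log2 fold change of the 51 genes was -0.16 and that of all tested features was 0.03. With the replicate number, which follows the day, as a block in edgeR, 17 members were called, 5 higher and 12 lower, against 23.3% of all features (6.28% higher and 17.0% lower). Bulk RNA cannot tell fewer cells of a type from less RNA per cell.

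The higher members in the fit with the block were SRSF9, HNRNPAB, SF3A1, SF3A2 and SF3B2. The lower members were CLK1, CLK4, SRSF10, SRSF11, SRSF6, TRA2A, TRA2B, HNRNPA3, SF3B1, LUC7L3, RBM39 and RBM25. DESeq2 called 15 members, 6 higher and 9 lower, of which 14 were among these 17, against 23.5% of all features (6.74% higher and 16.8% lower). After each library's trend with transcript GC content was removed, edgeR called 0 members without the block (20 at an unadjusted p under 0.05, against 18.3% of all features) and 6 features in all. Leaving out the shNXN library of day 11 gave 13 called members, with 3706 features called in all. Leaving out any of the other 5 libraries gave 0 members. Those fits called 0 features in all, except 248 without the shControl library of day 9. With the block and the GC correction together, 6 members were called, all of them higher (SRSF4, SRSF9, HNRNPR, HNRNPU, HNRNPD and HNRNPH1), against 1.02% of all features (0.348% higher and 0.668% lower). With the block alone, HNRNPR, HNRNPU and HNRNPD had log2 fold changes of -0.10, -0.25 and -0.21. SRSF4, SRSF9 and HNRNPH1 were at 0.27, 0.42 and 0.07. The correction used the longest annotated transcript, which was longer than the longest coding one in all of these but HNRNPR. For SRSF4 it had 8128 nt and for HNRNPU 13084 nt, against 2387 and 6858 nt for the longest coding ones. What this choice did to the calls was not tested.

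**Figure D1:**
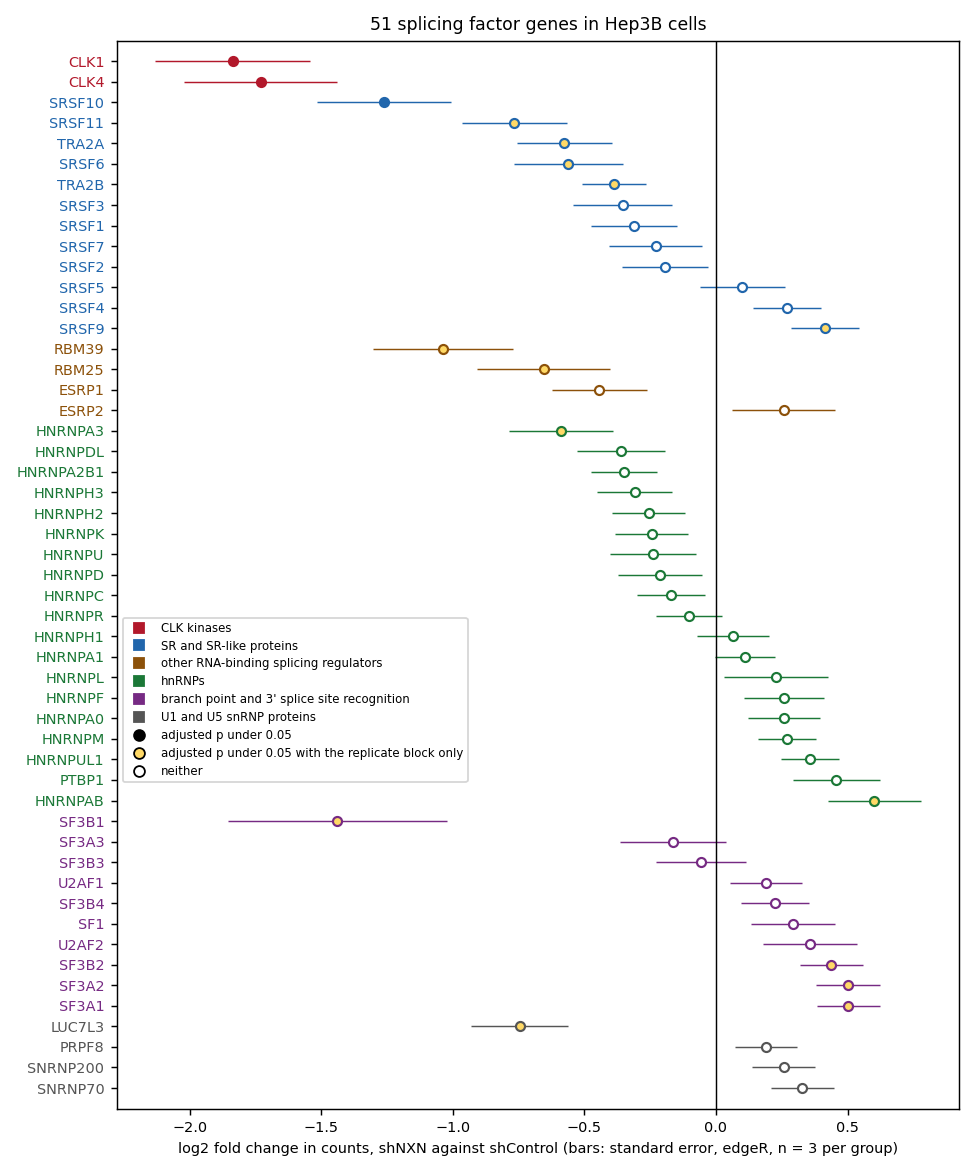
Log2 fold change in counts of each of the 51 splicing factor genes (x axis, shNXN against shControl) with its standard error from edgeR, n = 3 libraries a group, grouped by role (colour). Filled points (CLK1, CLK4 and SRSF10) have an adjusted p under 0.05, yellow points (14 genes) have one only in the fit with the replicate block, and open points have neither.

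The CLK kinases had the lowest fold changes of all members. CLK1 (ENSG00000013441, chromosome 2, 200853009 to 200864744, minus strand, GENCODE 29 on GRCh38) was at 79.5, 96.4 and 69.3 CPM in shControl cells on days 7, 9 and 11 and at 21.1, 15.3 and 32.2 CPM in shNXN cells. Each shNXN library lay below each shControl library, so that CLK1 fell from a mean of 81.7 ± 13.7 to one of 22.9 ± 8.62 CPM (SD, n = 3; log2 fold change -1.84, SE 0.29, edgeR adjusted p = 0.0452). CLK4 (ENSG00000113240, chromosome 5, 178602664 to 178630615, minus strand) was at 15.6, 16.4 and 12.6 CPM in shControl cells and at 3.16, 4.29 and 5.99 CPM in shNXN cells. Its groups did not overlap either, and CLK4 fell from a mean of 14.9 ± 1.99 to one of 4.48 ± 1.42 CPM (SD, n = 3; log2 fold change -1.73, SE 0.29, edgeR adjusted p = 0.0452).

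For both kinases the gap was smallest on day 11, where the log2 difference was -1.10 for CLK1 and -1.08 for CLK4, against -1.91 and -2.30 on day 7 and -2.66 and -1.94 on day 9. With the GC correction the log2 fold changes were -0.75 for CLK1 and -0.65 for CLK4, and neither passed the threshold (edgeR adjusted p = 0.223 and 0.299). CLK1 and CLK4 transcripts had GC contents of 35.7% and 36.2%, close to the lowest among the members.

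SRSF10 had the largest fall of the 12 SR and SR-like proteins. It is an SR-like protein that acts as a repressor when dephosphorylated. SRSF10 (ENSG00000188529, chromosome 1, 23964804 to 23980927, minus strand) was at 182.2, 140.3 and 193 CPM in shControl cells and at 65.5, 51.7 and 97.5 CPM in shNXN cells. The 3 shNXN libraries were the 3 lowest. SRSF10 fell from a mean of 172 ± 27.9 to one of 71.6 ± 23.5 CPM (SD, n = 3; log2 fold change -1.26, SE 0.26, edgeR adjusted p = 0.0496). With the GC correction SRSF10 had a log2 fold change of -0.53 (edgeR adjusted p = 0.15).

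The start regions are shown for the 3 genes that edgeR called without the block. Whether these genes are regulated together was not tested. RefSeq windows of 250 bases before the transcription start were available for 44 of the 51 members, as 60 windows, since some genes have several starts. The sequences below are 5′ to 3′ on the gene's strand, on GRCh38.p14, and leave out bases that an exon of the same gene covers in GENCODE 29; for SRSF10, where such an exon covers the window, 30 bases around a motif are given. Capitals mark a match to a searched motif. The motifs were the E-box CACGTG, the CCAAT box, the core TATAAA of the TATA box and the palindrome TCGCGA, each on both strands. The CLK1 stretch, chr2:200864745-200864908 before the first of 2 listed starts, had no match. The CLK4 stretch, chr5:178627115-178627300, held the E-box, which began 111 bases before the start. The SRSF10 stretch, chr1:23980360-23980389, held the palindrome, 50 bases before the start.
CLK1: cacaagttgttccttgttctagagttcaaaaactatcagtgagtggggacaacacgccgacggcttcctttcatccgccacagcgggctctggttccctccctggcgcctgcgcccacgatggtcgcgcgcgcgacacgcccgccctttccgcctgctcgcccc
CLK4: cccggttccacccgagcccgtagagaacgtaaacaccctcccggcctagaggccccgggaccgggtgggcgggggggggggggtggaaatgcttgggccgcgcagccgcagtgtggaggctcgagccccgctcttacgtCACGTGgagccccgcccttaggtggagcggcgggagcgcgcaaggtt
SRSF10: gggagtgaagtcTCGCGAgaagagtcggtt

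No motif was common to the 3 genes. TCGCGA stood in 7 of the 60 member windows (11.7%), SRSF10 and HNRNPK among them, and in 2.64% of 35116 windows of all genes. The E-box stood in 16.7% of member windows and 6.34% of all, the CCAAT box in 36.7% and 32%, and TATAAA in 10% and 10.7%. The member windows had a median GC content of 65.6% and all windows 58%. These matches describe the letters in the windows only.

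Of the other SR and SR-like genes, 4 were lower and 1 was higher with the block, so that the group had 1 call without the block and 6 with it. Of all tested features, 3.39% were called without the block and 23.3% with it (6.28% higher and 17.0% lower). SRSF11 was at 246.4, 186.2 and 291.3 CPM in shControl cells and at 142.3, 120.8 and 162.3 CPM in shNXN cells, with no overlap. Its log2 fold change was -0.77 (SE 0.20, edgeR adjusted p = 0.0681, or 0.0162 with the block). SRSF6, which binds exonic enhancers, had a log2 fold change of -0.56 (edgeR adjusted p = 0.12, or 0.0306 with the block). TRA2A and TRA2B, the transformer-2 homologs, had log2 fold changes of -0.58 and -0.39 (edgeR adjusted p 0.0319 and 0.0423 with the block, 0.089 and 0.0901 without). SRSF9 went the other way: it was at 140.4, 142.4 and 119.7 CPM in shControl cells and at 183.6, 183.8 and 169.1 CPM in shNXN cells. All 3 shNXN libraries were above all 3 shControl libraries, and the log2 fold change was 0.41 (SE 0.13, edgeR adjusted p = 0.0864, or 0.039 with the block).

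The remaining members of the SR group, SRSF1, SRSF2, SRSF3, SRSF4, SRSF5 and SRSF7, had log2 fold changes between -0.35 and 0.27 and passed neither fit. Over the group the median was -0.33, with 9 genes below 0 and 3 above. The GC correction moved the median to 0.34, with 2 below 0 and 10 above, so the group's direction depended on that correction. SRSF10 stayed below 0, and 7 genes changed sign: SRSF1, SRSF3, SRSF6, SRSF7, SRSF11, TRA2A (to 0.03) and TRA2B.

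**Figure D2:**
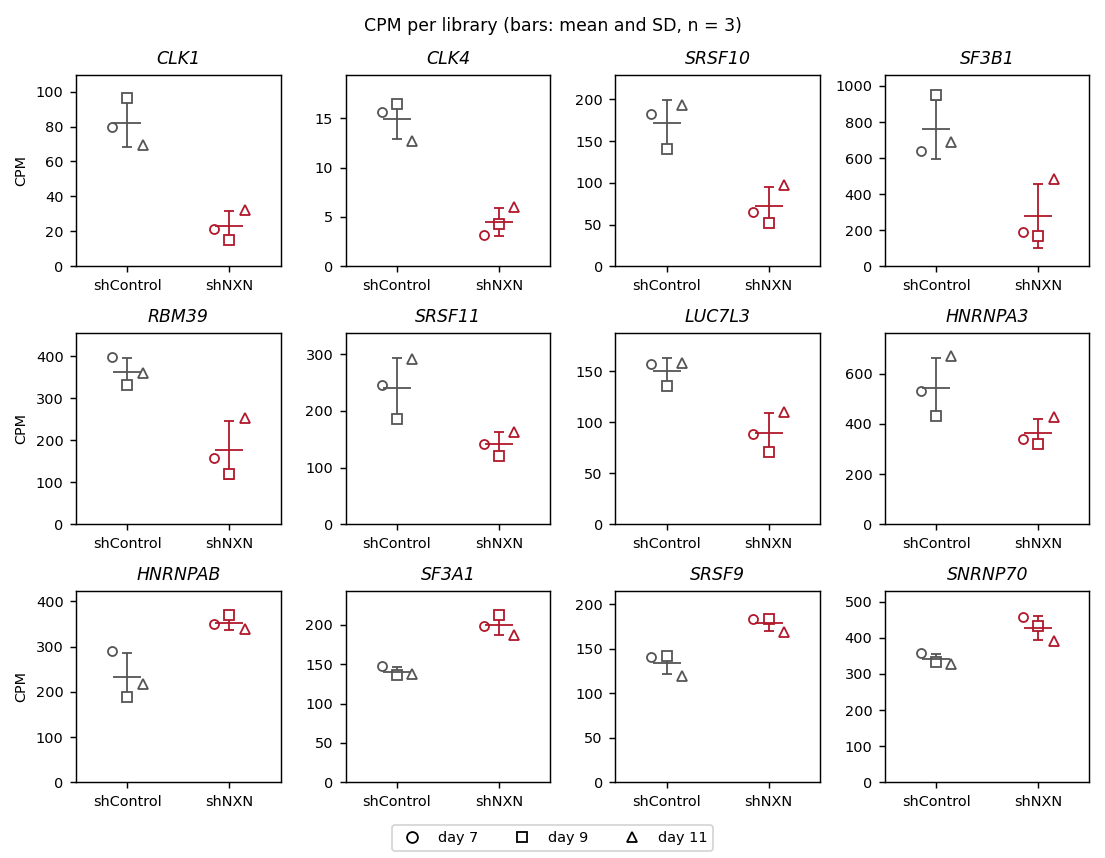
CPM of 12 splicing factor genes in each library (y axis, from 0), with the mean and SD of the 3 libraries of shControl (grey) and shNXN (red) and the day as the symbol. In CLK1, CLK4, SRSF10, SF3B1, RBM39, SRSF11, LUC7L3 and HNRNPA3 the shNXN libraries lie below all shControl libraries, with day 11 the highest of the 3, and in HNRNPAB, SF3A1, SRSF9 and SNRNP70 they lie above.

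Among the other RNA-binding regulators, RBM39 and RBM25 were the members called lower with the block. RBM39, a U2AF-related splicing coactivator, was at 398.2, 331.9 and 361.3 CPM in shControl cells and at 157.6, 120.9 and 253 CPM in shNXN cells. The groups did not overlap, and the log2 fold change was -1.04 (SE 0.27, edgeR adjusted p = 0.0671, or 0.0273 with the block). With the GC correction RBM39 had a log2 fold change of -0.55 (edgeR adjusted p = 0.186), and with the block as well -0.56 (edgeR adjusted p = 0.107). RBM25, which binds exonic enhancers, was at 132.4, 89.6 and 175.1 CPM in shControl cells and at 82.6, 72.9 and 96.7 CPM in shNXN cells, where the shNXN library of day 11 was above the shControl library of day 9. The log2 fold change of RBM25 was -0.65 (edgeR adjusted p = 0.129, or 0.0387 with the block) and turned to 0.24 with the GC correction. ESRP1 and ESRP2, the epithelial splicing regulators, had log2 fold changes of -0.44 and 0.26 (edgeR adjusted p = 0.14 and 0.373), and neither passed with the block. The ESRP1 groups did not overlap, with 77.9, 104.4 and 75.6 CPM in shControl cells and 67.4, 55.2 and 67.2 CPM in shNXN cells.

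Of the 19 hnRNPs, 0 passed in edgeR without the block (6 at an unadjusted p under 0.05), HNRNPA3 (lower) and HNRNPAB (higher) passed with it, and DESeq2 called HNRNPAB and HNRNPUL1, both higher. The shares of all tested features were 3.39% without the block (32.9% at an unadjusted p under 0.05), 23.3% with it and 23.5% by DESeq2. HNRNPA3 was at 529.3, 432.5 and 670.1 CPM in shControl cells and at 339, 319.4 and 427.7 CPM in shNXN cells. The log2 fold change was -0.59 (SE 0.20, edgeR adjusted p = 0.101, or 0.0233 with the block), and it was 0.47 with the GC correction. HNRNPAB was at 290.6, 188.4 and 216.8 CPM in shControl cells and at 350.2, 368.8 and 337.6 CPM in shNXN cells. Its shNXN libraries were all above its shControl libraries, and the log2 fold change was 0.60 (SE 0.18, edgeR adjusted p = 0.0803, or 0.044 with the block) and 0.11 with the GC correction.

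The 17 other hnRNPs had log2 fold changes between -0.36 and 0.46. The most abundant members of the whole list were in this group. HNRNPA1, a general repressor of exon inclusion, was at 981 ± 96.1 FPKM in shControl cells and 1295 ± 183 FPKM in shNXN cells (SD, n = 3), and its log2 fold change in counts was 0.11 (edgeR adjusted p = 0.51). HNRNPA2B1 followed with 789 ± 61.1 and 674 ± 41.9 FPKM, then HNRNPC with 520 ± 80.1 and 590 ± 76.1 FPKM. PTBP1, the polypyrimidine tract binding protein, was at 449 ± 68.1 and 536 ± 62.1 FPKM, and HNRNPK at 488 ± 18.6 and 493 ± 6.94 FPKM, so the order of PTBP1, HNRNPK and HNRNPC was within their spread. The log2 fold changes in counts of HNRNPA2B1, HNRNPC, PTBP1 and HNRNPK were -0.35, -0.17, 0.46 and -0.24, none of which passed. By the mean over all 6 libraries, the lowest members were CLK1, ESRP1 and CLK4. In shControl cells alone they were at 46.4 ± 12.3, 28.8 ± 7.91 and 7.37 ± 1.79 FPKM (SD, n = 3), where RBM25, HNRNPH2 and ESRP2 lay below CLK1.

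Among the branch point and 3′ splice site proteins, SF3B1 was low and 7 of the other members were on the high side. SF3B1, the largest subunit of SF3b, which holds the U2 snRNP on the branch point, was at 639.6, 948 and 691.4 CPM in shControl cells and at 190.2, 166.6 and 483.4 CPM in shNXN cells. The shNXN libraries of days 7 and 9 were far below the controls, and that of day 11 was nearer to them, with log2 differences of -1.75, -2.51 and -0.52. The mean was 760 ± 165 and 280 ± 177 CPM (SD, n = 3), and the log2 fold change was -1.44 (SE 0.42, edgeR adjusted p = 0.0784, or 0.0422 with the block). With the block and the GC correction SF3B1 had a log2 fold change of -0.97 (edgeR adjusted p = 0.121).

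SF3A1, SF3A2 and SF3B2, other subunits of the same U2 snRNP complexes, were higher with the block. SF3A1 was at 147.5, 136.7 and 136.8 CPM in shControl cells and at 198.1, 211.6 and 187 CPM in shNXN cells, with no overlap. Its log2 fold change was 0.50 (SE 0.12, edgeR adjusted p = 0.0604, or 0.0307 with the block). SF3A2 and SF3B2 had log2 fold changes of 0.50 and 0.44 (edgeR adjusted p 0.033 and 0.0373 with the block). The GC correction left SF3A1 at 0.12 and SF3B2 at 0.46 and turned SF3A2 to -0.14. SF1, SF3A3, SF3B3, SF3B4, U2AF1 and U2AF2 had log2 fold changes between -0.16 and 0.36 and passed neither fit.

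LUC7L3, a U1-associated protein, was the lower member of the U1 and U5 group. It was at 157.3, 135.4 and 158.2 CPM in shControl cells and at 88.3, 70.7 and 109.8 CPM in shNXN cells, and the groups did not overlap. The log2 fold change in counts was -0.75 (SE 0.19, edgeR adjusted p = 0.064, or 0.0214 with the block), and it turned to 0.24 with the GC correction. SNRNP70, the U1 70K protein, was at 358.6, 334.1 and 328.5 CPM in shControl cells and at 458.1, 432.5 and 391.1 CPM in shNXN cells. Its shNXN libraries were the higher ones, and the log2 fold change was 0.33 (SE 0.12, edgeR adjusted p = 0.118, or 0.0569 with the block), and it turned to -0.27 with the GC correction. PRPF8 and SNRNP200, the central U5 proteins, had log2 fold changes of 0.19 and 0.26 and passed neither fit.

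By day, the members did not move as a whole. The median log2 difference in CPM over the 51 genes was -0.08 for day 7, -0.06 for day 9 and -0.07 for day 11. In CPM, 24 members were lower on all days, 19 were higher on all days and 8 were mixed, against 32.6% and 35.8% of all tested features lower and higher on all days. In 15 members all shNXN libraries lay under all shControl libraries (21.5% of all features), and in 12 they lay over them (19.0%). Without the libraries of day 11, edgeR called 16 members, 6 higher and 10 lower, against 31.8% of all features (7.99% higher and 23.8% lower), and 12 of them were among the 17 called with the block.

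The members' fold changes followed the GC content of their transcripts, as those of all features did. Spearman's rho between the GC content of the longest annotated transcript and the log2 fold change in counts was 0.72 across the 51 genes and 0.79 across 12740 features, which share the same 6 libraries and are not independent. The members had a median GC content of 42.1% (35.3% to 66.6%) and all features 48.4%. Among the 32 members under 45% GC the median log2 fold change was -0.33, with 25 below 0 and 7 above, and 12 were lower and 1 was higher with the block. Among the 19 members at or above 45% GC the median was 0.27, with 3 below 0 and 16 above, and 0 were lower and 4 were higher with the block. The correction takes out any group difference that runs with GC content, wherever it came from, and it moved the median of all features to -0.18 and that of the members to 0.11. The part of GC content in these fold changes was not tested beyond this correction.

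**Figure D3:**
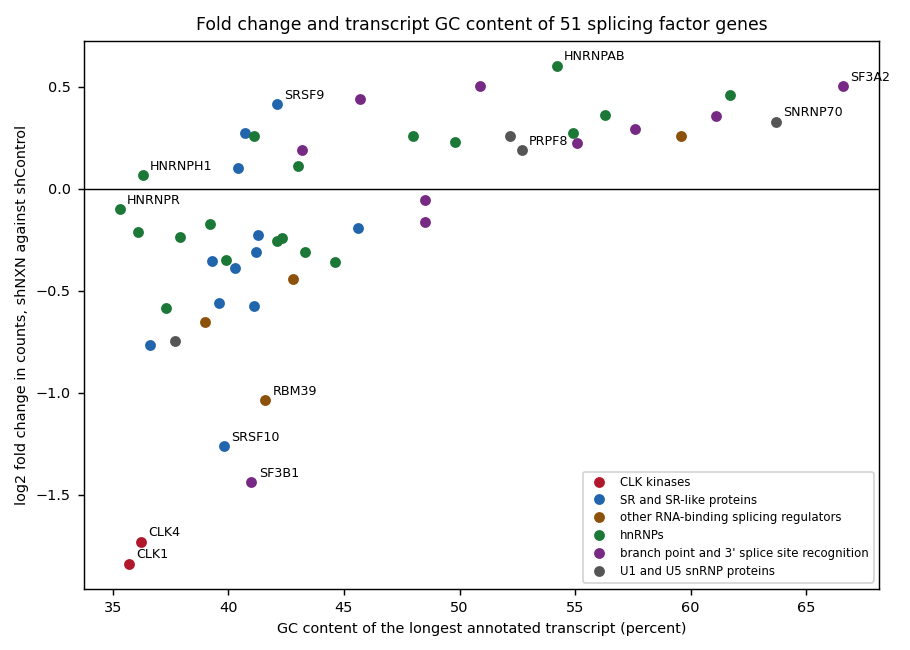
Log2 fold change in counts (y axis, shNXN against shControl) against the GC content of the longest annotated transcript (x axis, percent) for the 51 splicing factor genes, coloured by role. CLK1, CLK4, SRSF10, SF3B1 and RBM39 lie at the lower left, under 45% GC, and most genes at or above 45% lie above 0.

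FPKM, which scales each value to transcript length, gave a different picture from the counts for many members. On the log2(FPKM + 1) scale CLK1 was the only member called by limma, with a fold change of -1.99 (SE 0.34, limma adjusted p = 0.0415), against 2.37% of all 12717 features tested (0.181% higher and 2.19% lower), and 14 members had an unadjusted p under 0.05, against 30.8%. With the block, limma called CLK1 and SRSF10, both lower, against 7.34% of all features (1.85% higher and 5.49% lower). Without day 11 it called 18 members, 13 higher and 5 lower, against 25.5% (12.2% higher and 13.3% lower). The median FPKM fold change of the members was 0.22 (log2) and that of all features 0.15. In FPKM 12 members were lower on all days and 24 higher, against 23.2% and 40.3% of all features. The shNXN libraries were all below the shControl libraries in 9 members (15.3%) and all above in 15 (21.7%).

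The FPKM fold change was above the count fold change in 43 of the 51 members, and in 11 they had opposite signs, always with the count lower and the FPKM higher. Over all tested features the median log2 difference on days 7, 9 and 11 was 0.21, 0.17 and 0.07 in FPKM. In CPM it was 0.0003, -0.006 and 0.07, so on days 7 and 9 the gap was not limited to the members. LUC7L3 was 1 of the 11 members with opposite signs. It was at 76.1, 67.9 and 86.3 FPKM in shControl cells and at 113.1, 101.6 and 69 FPKM in shNXN cells. The FPKM was thus above the control on days 7 and 9 and below it on day 11, while the CPM was below it on every day. SRSF1, the founding SR protein, was at 197.6, 192.1 and 228.3 FPKM in shControl cells and at 310.1, 325.3 and 218.8 FPKM in shNXN cells. Its fold change was 0.45 on the log2(FPKM + 1) scale and -0.31 in counts (limma adjusted p = 0.15 and 0.223 from edgeR). For CLK4, the fold change was -0.76 in FPKM and -1.73 in counts, and for SF3B1 it was -1.76 and -1.44.

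**Figure D4:**
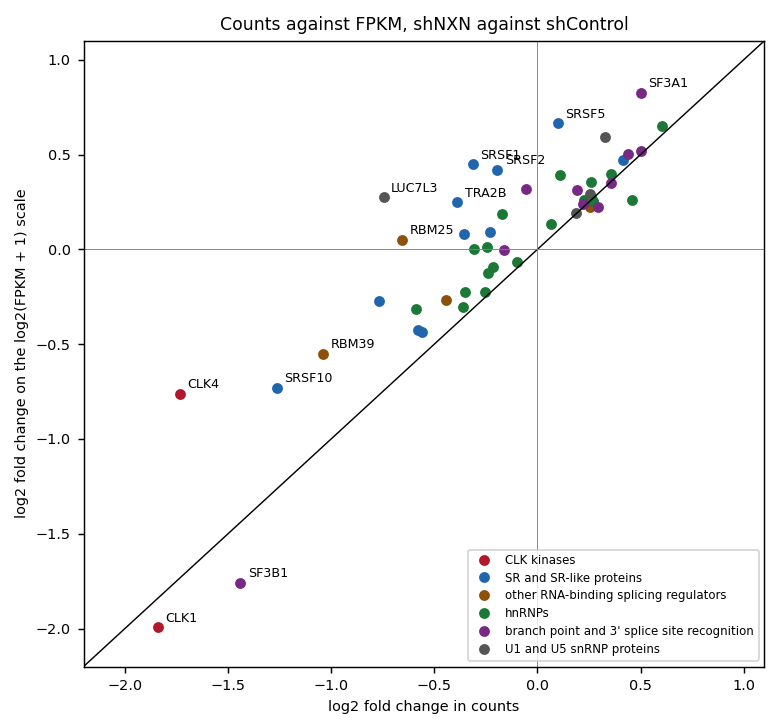
Fold change on the log2(FPKM + 1) scale (y axis) against log2 fold change in counts (x axis), shNXN against shControl, for the 51 splicing factor genes, coloured by role, with the line of equal values. Of the 51 points, 43 lie above the line, LUC7L3, SRSF1, SRSF2, RBM25 and TRA2B have a count below 0 and an FPKM above 0, and CLK1 and SF3B1 lie low on both axes.

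A count divided by the FPKM and by the library total gives the transcript length that the deposited values imply for a gene in a library. It is lower where the FPKM of a gene rests on shorter transcripts, and it stays fixed for a gene with a single transcript length. Over 498 genes with 1 annotated transcript the median log2 difference in implied length was -0.01. HNRNPA0, whose annotation lists 1 transcript, gave 2704, 2718 and 2667 nt in shControl cells and 2678, 2675 and 2678 nt in shNXN cells. That annotated transcript has 8726 nt, so the implied length was level between libraries but far shorter. HNRNPH2, whose 1 annotated transcript has 2223 nt, gave means of 1954 nt in shControl cells and 1935 nt in shNXN cells. Implied lengths are thus compared between libraries only and are not annotated lengths. Which transcripts the deposited values rest on was not tested. In 12 members the 6 implied lengths lay within 5% of their mean. The median member was at 1804, 1570 and 1821 nt in shControl cells and at 1489, 1479 and 1535 nt in shNXN cells, and the median over all features was at 2017, 1872 and 2010 nt and at 1719, 1700 and 1866 nt.

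The implied lengths that differed most were shorter in shNXN cells. LUC7L3 was at 2055, 1987 and 1830 nt in shControl cells and at 802, 706 and 1535 nt in shNXN cells, a log2 difference of -1.03. SRSF1 was at 1804, 1488.5 and 1851 nt and at 923, 857 and 1358 nt, SRSF2 at 1270, 930 and 1074 nt and at 661, 622 and 910 nt, and SRSF5 at 843, 841 and 918 nt and at 506, 487 and 829 nt. In these 4 genes every shNXN library was shorter than every shControl library, and the shNXN library of day 11 was the nearest to the controls. TRA2B was at 1629, 1275 and 1859.5 nt in shControl cells and at 979, 988 and 1078 nt in shNXN cells, and CLK4 at 1864, 1929 and 2380 nt and at 1173.5, 915 and 1351 nt, both again without overlap. RBM25 was at 3556, 2062.5 and 4104 nt and at 2012.5, 1972 and 1940 nt, so its shControl library of day 9 was close to the shNXN libraries. CLK1 differed in direction, with 1868, 1595 and 1881 nt in shControl cells and 2156, 2330 and 1751 nt in shNXN cells, and overlapped.

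After centring each library on its median feature, no member passed limma's test of implied length at an adjusted p under 0.05, against 0.819% of 11479 features (0.113% longer and 0.706% shorter), and 13 members had an unadjusted p under 0.05, against 20.9%. The block gave 0 members that passed (10 unadjusted, against 22.6%), and so did the lengths without centring (13 unadjusted, against 18.3%). LUC7L3 had a centred log2 difference of -0.88 (limma adjusted p = 0.15), SRSF1 -0.58 (adjusted p = 0.128), CLK4 -0.69 (adjusted p = 0.0939) and SRSF10 -0.39 (adjusted p = 0.0705). Without day 11, 5 members passed against 11.9% of all features (3.37% longer and 8.56% shorter): LUC7L3 (-1.24, limma adjusted p = 0.00347), SRSF1 (-0.70), CLK4 (-0.69) and SRSF5 (-0.58) were shorter and CLK1 (0.56) was longer. The shControl library of day 9 gave the shortest implied length of the 3 controls in 31 of the 51 members. Its median over all features was also the shortest of the 3, at 1872 nt against 2017 and 2010 nt.

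In 27 members the implied length was shorter on all days and in 0 it was longer, against 31.0% and 7.06% of all features. A log2 difference of -0.5 or lower was met by 11 members on day 7, 7 on day 9 and 6 on day 11, against 17.4%, 14.6% and 9.54% of all features. All shNXN libraries were shorter than all shControl libraries in 18 members (18.5% of all features; all longer in 0 members and 3.70% of features), and 8 of these were among the 12 SR and SR-like proteins. The hnRNPs gave 4 of 19, the branch point proteins 2 of 10, the U1 and U5 proteins 2 of 4, the other regulators 1 of 4 and the kinases 1 of 2. Without centring, the median log2 difference was -0.44 for the SR and SR-like proteins and -0.05 for the hnRNPs, against -0.04 for all features. Over the 8348 features with 5 or more annotated transcripts the median was -0.07, with quartiles of -0.28 and 0.008. The files do not name the transcripts behind a gene's value, so the exons or ends that differ were not analysed here.

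**Figure D5:**
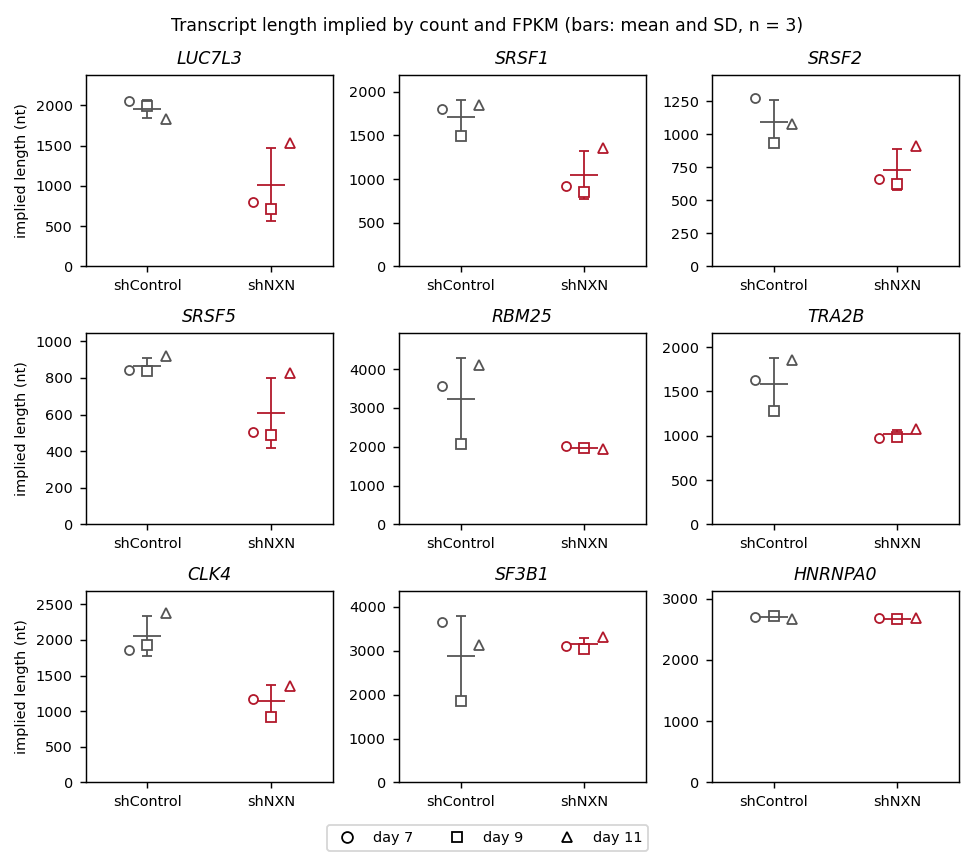
Transcript length in nt implied by count, FPKM and library total (y axis, from 0) for 9 splicing factor genes in each library, with the mean and SD of the 3 libraries of shControl (grey) and shNXN (red) and the day as the symbol. LUC7L3, SRSF1, SRSF2, SRSF5, TRA2B and CLK4 are shorter in each shNXN library than in any shControl library, SF3B1 is low in the shControl library of day 9 alone, and HNRNPA0 stays level.

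Among 128 other spliceosome and splicing genes, 1 was higher and 6 were lower by edgeR, and with the block 12 were higher and 27 lower, where all features gave 3.39% called without the block (0.185% higher and 3.21% lower) and 23.3% with it (6.28% higher and 17.0% lower). Their median log2 fold change was -0.02. With the block, the 34 other splicing regulators and kinases had 4 higher and 14 lower, and the 32 PRPF19-associated and B-to-C complex proteins had 1 higher and 9 lower. The 14 U4/U6.U5 tri-snRNP proteins had 3 higher and 0 lower, the 17 other U1 and U2 snRNP proteins 1 and 3, the 14 Sm and LSm ring proteins 2 and 0, the 8 exon junction complex proteins 1 and 0 and the 9 minor spliceosome proteins 0 and 1. The 5 genes with the smallest p were PTBP2, the neuronal paralog of PTBP1, MBNL1 and MBNL2, the muscleblind regulators, BCAS2, a subunit of the PRPF19 complex, and CHERP, a U2-associated protein. PTBP2 was at 17.7, 11.1 and 13.2 CPM in shControl cells and at 4.08, 4.96 and 4.7 CPM in shNXN cells, without overlap. PTBP2, MBNL2, BCAS2 and MBNL1 had log2 fold changes of -1.61, -1.22, -1.05 and -1.04 and CHERP 0.69 (edgeR adjusted p 0.0452, 0.0452, 0.0452, 0.0466 and 0.0473). None of the 5 passed with the GC correction, where they lay between -0.29 and 0.14.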

How the data were processed

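RNA had been sequenced from 3 shControl and 3 shNXN libraries of Hep3B cells (SMARTER mRNA-seq kit). The authors deposited estimated counts per gene with decimals and, in a second table, FPKM values. The aligner, counting program and settings are not given in the sources used here. The submitters' processing notes name the mouse builds GRCm38 and mm10, whereas the feature identifiers are human. Estimated counts share reads among transcripts and paralogs, which makes the counts of close hnRNP paralogs uncertain, and FPKM depends on the transcript lengths used. The counting is not stated to use strand, so reads of overlapping and antisense genes cannot be told apart. Groups and days came from the labels, and 0 columns had no sample.

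The 51 members, their roles and the other gene lists were chosen with earlier results of these data known. Of 20314 Ensembl identifiers, 19433 had a symbol. The members all had at least 10 counts in every library. No replicates agreed within sampling noise (chi-square per gene 21.3 to 82.8).

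The rounded counts were fitted in edgeR 4.0.16 under R 4.3.3 (TMM, filterByExpr, quasi-likelihood test), and p-values were adjusted by the Benjamini-Hochberg method over all tested features. The standard error is the size of the log2 fold change divided by the root of the F statistic. FPKM of at least 1 in 3 libraries and implied lengths (FPKM of at least 1 and count of at least 10 in every library) were tested on the log2 scale with limma 3.58.1, FPKM with a pseudocount of 1, which understates changes of low genes. Same-day libraries of the 2 groups deviated together from their group means (correlations 0.304, 0.309 and 0.451, against -0.368 to 0.148 between different days), and the replicate numbers follow the day in the labels, so fits with the replicate number as a block are given beside the main ones. GC content was that of the longest GENCODE 29 transcript, and the GC correction used a spline with 5 degrees of freedom as an offset. The alternatives were DESeq2 1.42.0, RLE size factors, library size only, other filters and pseudocounts, each library left out and both day 11 libraries left out. The tests were run on simulated data first.

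The named members were those called by edgeR, the 8 with the smallest p with the block, the largest rise and fall in each role, the 6 with the largest gap between count and FPKM fold changes, the 5 highest and 3 lowest in FPKM, and beyond them NXN and the 5 other splicing genes with the smallest p. Members called in an alternative and those with short implied lengths (SRSF5 among them) were added after their values were seen. Depth (15349382 to 16332589 counts) limits CLK4 most, the member with the lowest FPKM.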

Additional observations from a re-analysis of the deposited data

Results flagged for a closer look

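LUC7L3 was flagged because its FPKM moved in opposite directions on different days. The log2 difference between shNXN and shControl was 0.572 on day 7 and 0.582 on day 9 and -0.322 on day 11. The difference between the days was not tested, since each day has 1 library per group. In CPM the log2 differences were -0.83, -0.94 and -0.53, and the implied length was 802 and 706 nt in the shNXN libraries of days 7 and 9 and 1535 nt in that of day 11.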

How the results depend on the processing

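The 3 called members remained 3 in number with RLE size factors, library size only, no filter on low counts and at least 10 counts in every library. The number was 17 with the replicate block, 15 with DESeq2, 16 without day 11, 0 with the GC correction, 6 with that correction and the replicate block together, 1 with limma on log2(FPKM + 1) values and 0 on log2(FPKM + 0.1) values, and 0 to 13 with 1 library left out (13 without the shNXN library of day 11, 0 without any of the other 5). All features called numbered 477, and under the same alternatives 826 with RLE, 929 with library size only, 818 with no filter, 3272 with the block, 3311 with DESeq2, 4519 without day 11, 6 with the GC correction, 143 with both, 301 and 55 with limma on FPKM, and 0 to 3706 with 1 library left out. The 1 member called in FPKM became 0 with a pseudocount of 0.1 or no filter, 2 with the block, 18 without day 11 and 0 to 12 with 1 library left out. The 0 members called in implied length became 5 without day 11 and 0 to 7 with 1 library left out. Without day 11, 25.5% of all features were called in FPKM and 11.9% in implied length. The shares of all features in these 2 measures with 1 library left out are not given here, so those member counts have no background beside them. NXN had log2 fold changes from -1.90 to -1.67 with 1 library left out and missed the threshold in 4 of those 6 fits (without either library of day 7, shControl of day 11 or shNXN of day 9). Of 29 other named genes under 17 alternatives, 15 kept their sign throughout and 14 changed it in 41 values. With the GC correction, without and with the block, the log2 fold changes were 0.37 and 0.36 for SRSF11, 0.24 and 0.24 for LUC7L3, 0.47 and 0.47 for HNRNPA3, 0.21 and 0.21 for SRSF6, -0.27 and -0.27 for SNRNP70, -0.30 and -0.29 for ESRP2, 0.30 and 0.30 for SRSF1, 0.24 and 0.25 for RBM25, 0.34 and 0.32 for TRA2B, 0.40 and 0.40 for HNRNPA2B1, 0.68 and 0.67 for HNRNPC, -0.12 and -0.10 for PTBP1 and 0.21 and 0.21 for HNRNPK. With pseudocounts of 1 and 0.1 on FPKM they were 0.27 and 0.28 for LUC7L3, 0.45 and 0.45 for SRSF1, 0.052 and 0.053 for RBM25, 0.25 and 0.25 for TRA2B, 0.42 and 0.42 for SRSF2, 0.18 and 0.18 for HNRNPC and 0.013 and 0.013 for HNRNPK. In counts with 1 library left out, SRSF2 ran from -0.24 (without the shControl library of day 9) to 0.020 (without that of day 7). The cause was not tested. The alternative that combines the block with uncentred implied lengths was added after seeing the data and called 0 members.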
